A study of Mus musculus with 8 samples.

Results

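The CDK inhibitors described here are the products of 7 mouse genes, Cdkn1a, Cdkn1b, Cdkn1c, Cdkn2a, Cdkn2b, Cdkn2c and Cdkn2d, and were read from every probe set whose platform annotation gives 1 of these symbols alone. That rule found all 7 genes, of 18193 genes named on the array, through 9 probe sets of 45037. Gene expression was measured in 2 mouse T cell acute lymphoblastic leukemia (T-ALL) lines of strain FVB/NJ, both homozygous for loss of E2a, which encodes E protein transcription factors of early lymphocytes. Cells were infected with a retrovirus, sorted for GFP 72 hours later, and their total RNA was hybridised to Affymetrix mouse 430 2.0 arrays, 2 arrays for each of 4 groups. The groups were the E2a-/-Lef1F/F line with MigR1-Cre, the same line with MigR1, the E2a-/- line with MigR1-Cre, and that line with MigR1. Lef1F/F cells carry loxP sites around the part of Lef1 that encodes the DNA binding domain, so that Cre deletes it in these cells, whereas the E2a-/- line has no such sites. MigR1 produces GFP alone and MigR1-Cre produces GFP and Cre. Each genotype is represented by 1 line, and effects of genotype and of line cannot be told apart. The sample titles give these groups, while a label field on the retrovirus contradicts them in both lines, giving MigR1 for E2a-/- cells titled Cre and MigR1-Cre for Lef1F/F cells titled MigR1; the titles were followed. The labels do not say whether the 2 arrays of a group came from separate cultures, and p-values therefore measure only the spread between these arrays, which may be technical.

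Cyclin-dependent kinases (CDKs) drive the cell cycle when bound to cyclins, and CDK inhibitors hold them back. The CIP/KIP family, p21 from Cdkn1a, p27 from Cdkn1b and p57 from Cdkn1c, binds cyclin-CDK complexes and blocks in particular the kinase partnered with cyclins E and A. The INK4 family, from Cdkn2a, Cdkn2b, Cdkn2c and Cdkn2d, binds Cdk4 and Cdk6 alone and keeps cyclin D from activating them, so that Rb stays unphosphorylated and E2F targets stay silent. Cdkn2a also encodes Arf, which stabilises p53, and loss of this locus is one of the most frequent lesions of human T-ALL, while p21 is a classic p53 target.

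Sequences upstream of the members were taken from RefSeq (build GRCm38.p6), which gave 9 transcription starts for 6 of the 7 genes, all but Cdkn1c. The 250 bases before a start were searched on both strands for the TCF/LEF core CTTTGA, the E box CANNTG that E proteins bind, the GC box GGGCGG and the E2F site TTTCGCGC. None of the 9 starts held CTTTGA, which 13.8% of all 32851 promoters in the table held, and none held TTTCGCGC, held by 0.256%. An E box was found before 2 starts and a GC box before 5, against 66.2% and 32.7% of all promoters. A p53 response element of 20 letters, with at most 1 mismatch outside its fixed core letters, was searched for after the sequences had been seen. It was found before 1 member start, the upstream start of Cdkn1a, and in 15 promoters or 0.0457% of all. These are matches of letters in a window and say nothing of binding. Both starts of Cdkn1a are shown because this gene carried the Cre response, and that of Cdkn2d because it had the INK4 family's greatest line difference. Each is written 5′ to 3′ along the gene's strand, with motifs in capitals. The upstream Cdkn1a start, chr17:29090729-29090978 on the plus strand, has the p53 response element beginning 51 bases before the start. The downstream Cdkn1a start, chr17:29093519-29093768 on the plus strand, has an E box 187 bases and GC boxes 104 and 46 bases before the start. Cdkn2d, chr9:21291210-21291459 on the minus strand, has GC boxes 118, 106 and 38 bases before the start, the last of these on the opposite strand.
Cdkn1a upstream start: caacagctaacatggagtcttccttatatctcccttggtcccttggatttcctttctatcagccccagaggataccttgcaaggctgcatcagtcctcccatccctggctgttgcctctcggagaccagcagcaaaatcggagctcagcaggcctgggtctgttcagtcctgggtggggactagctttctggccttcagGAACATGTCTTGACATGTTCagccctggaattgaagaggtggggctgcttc
Cdkn1a downstream start: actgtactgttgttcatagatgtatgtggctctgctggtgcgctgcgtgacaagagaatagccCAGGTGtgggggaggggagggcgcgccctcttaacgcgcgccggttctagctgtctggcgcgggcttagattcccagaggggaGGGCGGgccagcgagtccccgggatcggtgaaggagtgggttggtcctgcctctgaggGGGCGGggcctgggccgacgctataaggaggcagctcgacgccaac
Cdkn2d: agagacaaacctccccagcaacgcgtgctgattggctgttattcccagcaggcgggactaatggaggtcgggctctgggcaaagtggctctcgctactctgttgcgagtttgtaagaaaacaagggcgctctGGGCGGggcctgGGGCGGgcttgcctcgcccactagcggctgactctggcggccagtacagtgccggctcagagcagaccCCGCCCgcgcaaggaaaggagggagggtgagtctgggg

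Arrays were alike in scale, with medians between 88.9 and 91.0 intensity units. Lef1, the gene that Cre deletes in part, was checked first. Its brighter probe set read 1903 and 1678 in Lef1F/F MigR1-Cre cells, against 6918 and 6126 in Lef1F/F MigR1 cells, a log2 difference of -1.87 ± 0.09 (SE, adjusted p = 0.000703, limma), and its dimmer probe set gave -2.54 ± 0.11. In the E2a-/- line the brighter probe set read 3008 and 3416 with MigR1-Cre and 3288 and 3337 with MigR1. Where these probe sets lie relative to the deleted exons was not examined, so residual signal says nothing of undeleted cells. Of 12 measured T lineage markers, 7 were above 1000 units in all arrays (Bcl11b, Cd247, Cd3d, Cd3g, Ptcra, Rag1 and Thy1) and Cd4 alone was under 180 in all. Of 31 markers of other cell types, 25 were under 180 units in all arrays, B lineage and myeloid markers all among them, and the exceptions were Epor, Tfrc, Gzma, Col1a2, Pdgfrb and Pecam1.

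The first question was which CDK inhibitors responded to Cre in cells with Lef1F/F alleles. Cdkn1a was the only member called, and at only 1 probe set. Its probe set 1421679_a_at, the dimmer of its pair, read 756 and 761 units in Lef1F/F MigR1-Cre cells, against 410.3 and 427 units in Lef1F/F MigR1 cells. The arrays of both groups were far apart next to the spread within each, with means of 759 ± 3.2 and 419 ± 11.7 units (SD, n = 2 each). The log2 difference was 0.86 ± 0.06 (SE, 95% confidence interval 0.72 to 0.99, 1.81-fold), with an adjusted p of 0.00282 in limma, and was the 4th highest of all 45037 probe sets. The brighter probe set, 1424638_at, read 1152 and 958 units with MigR1-Cre and 570.2 and 749 units with MigR1. These groups did not overlap either, but replicates lay further apart, with means of 1055 ± 137 and 660 ± 126 units (SD, n = 2 each). Its log2 difference of 0.68 ± 0.14 (SE, interval 0.37 to 1.00) ranked 11th from the top and did not pass, with an adjusted p of 0.237. The call at the dimmer probe set ended, at the same 0.86, when only the 4 Lef1F/F arrays were fitted (adjusted p = 0.229). The study itself named this gene on these arrays, so its direction here is no independent evidence. The 4 measured natural killer markers summed to 9205 to 9898 units with MigR1-Cre and 7669 to 8298 units with MigR1, with Gzma alone above 180 units and not called. T lineage markers summed to 41761 to 44658 units with MigR1-Cre and 39176 to 41701 units with MigR1, with Ptcra at 0.48 on the log2 scale and not called. Sums were lower with MigR1-Cre for erythroid markers (4089 to 4271 against 4395 to 4802 units) and for stromal and endothelial markers (1022 to 1058 against 1124 to 1165 units). Tfrc made up most of the erythroid sum, at 3572 and 3786 units with MigR1-Cre and 3897 and 4315 units with MigR1. It was not called, and Epor and Gata1 were slightly higher with MigR1-Cre, at 0.05 and 0.02 on the log2 scale. Among stromal and endothelial markers Pdgfrb fell most, at -0.40, and was not called. The part of these markers in the result was not tested. In sorted bulk cells, fewer cells of a type and less RNA per cell cannot be told apart.

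**Figure D1:**
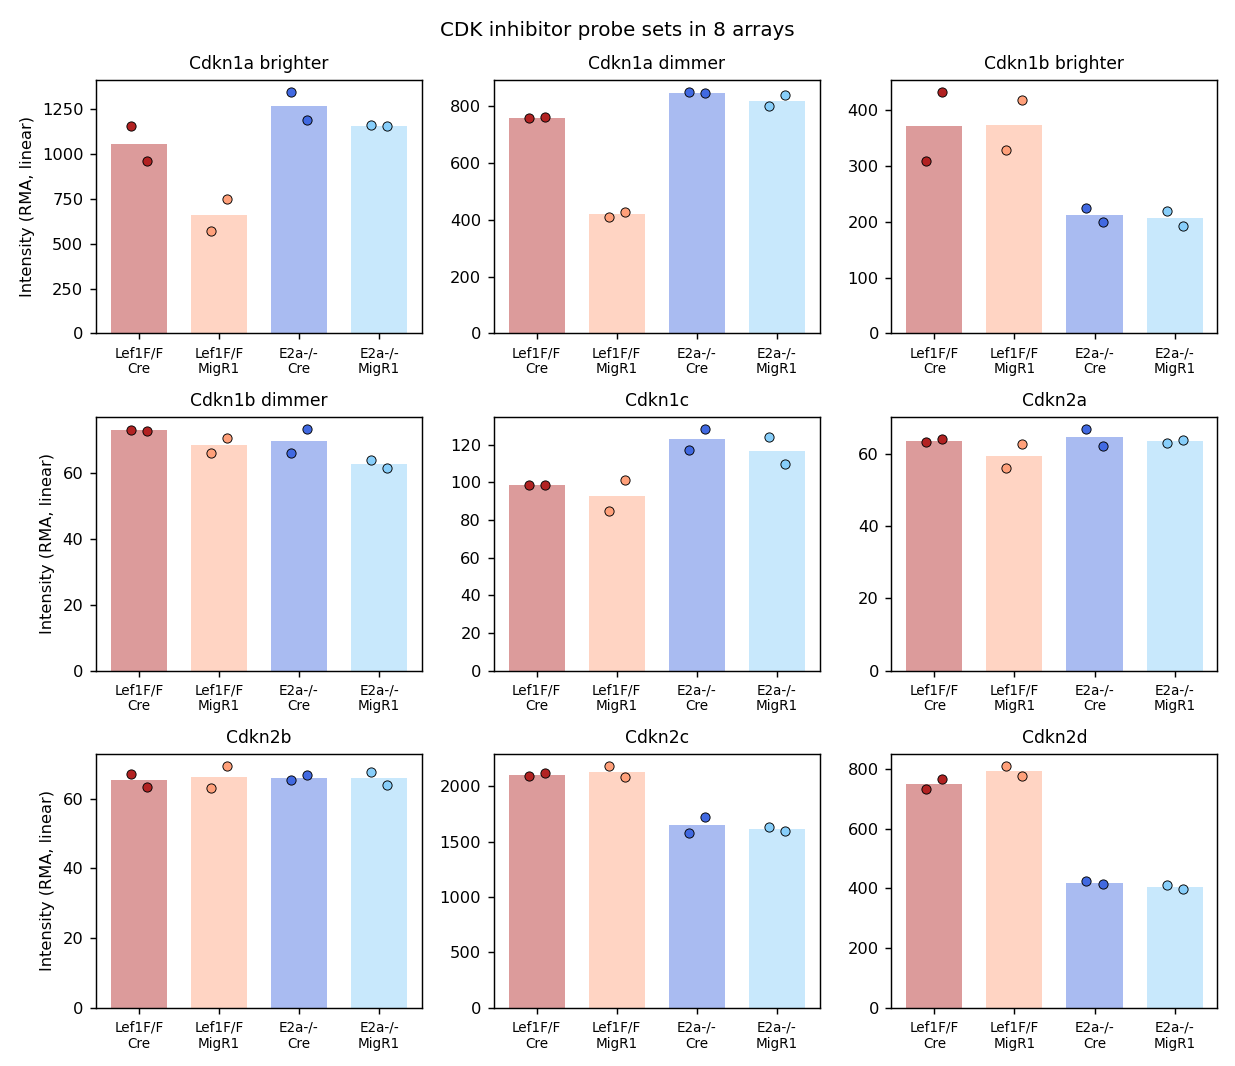
Intensity of the 9 CDK inhibitor probe sets (RMA units, linear, each panel with its own axis from 0) in the 8 arrays, grouped as Lef1F/F MigR1-Cre, Lef1F/F MigR1, E2a-/- MigR1-Cre and E2a-/- MigR1, with a point for each array and a bar for each group mean of 2 arrays. Both Cdkn1a probe sets are low in the Lef1F/F MigR1 arrays (570.2 and 749, 410.3 and 427 units), and Cdkn2d separates the lines with either vector.

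Among the other CIP/KIP genes, Cdkn1b encodes p27, the inhibitor that holds lymphocytes in quiescence and is degraded when they enter the cycle. Its brighter probe set, 1434045_at, read 309.9 and 433 units in Lef1F/F MigR1-Cre cells, against 328 and 419 units in Lef1F/F MigR1 cells. The groups overlapped fully, and the log2 difference was -0.02 ± 0.17 (SE, interval -0.41 to 0.38). The dimmer Cdkn1b probe set, 1419497_at, read 72.8 and 72.7 units with MigR1-Cre and 66 and 70.5 units with MigR1, below the median of every array. Cdkn1c (1417649_at), which encodes p57 and is imprinted, read 98.3 and 98.6 units with MigR1-Cre and 84.6 and 101 units with MigR1, and these overlapped. Its log2 difference was 0.09 ± 0.10 (SE).

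In the INK4 family, Cdkn2c encodes p18, an inhibitor of thymocyte and T cell proliferation in mice. Its probe set 1416868_at read 2088 and 2121 units in Lef1F/F MigR1-Cre cells, against 2182 and 2081 units in Lef1F/F MigR1 cells, which overlapped, with a log2 difference of -0.02 ± 0.06 (SE, interval -0.17 to 0.13). Cdkn2d (1416253_at), which encodes the INK4 protein p19, read 732 and 765 units with MigR1-Cre and 809 and 777 units with MigR1. These arrays did not overlap, but the log2 difference of -0.08 ± 0.06 (SE) had an adjusted p of 1 in limma. Cdkn2a (1450140_a_at), the p16 and Arf gene, and its neighbour Cdkn2b (1449152_at), the p15 gene, both stayed below every array's median. Cdkn2a read 63.1 and 64.1 units with MigR1-Cre and 56 and 62.6 units with MigR1, and Cdkn2b read 67.2 and 63.5 units with MigR1-Cre and 63.1 and 69.4 units with MigR1. The table holds no detection calls, so whether these dim probe sets measured transcript at all cannot be told. The Cdkn2a probe set was not assigned to the p16 or the Arf transcript.

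By count, 1 of the 9 member probe sets was called in the Cre effect in Lef1F/F cells, in the upward direction, where 0.167% of all probe sets were called, 0.0400% upward and 0.127% downward. The median log2 difference of the member probe sets was 0.09, and that of all probe sets was 0.00. Over the 7 member genes at their brightest probe sets the median was -0.02, and that of all named genes was -0.001. The arrays did not overlap at 5 of the 9, both Cdkn1a probe sets, the dimmer of Cdkn1b and Cdkn2a upward and Cdkn2d downward, while 29.1% of all probe sets did not overlap.

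The E2a-/- line served as the control for Cre itself, since it has no loxP sites in Lef1. Here no CDK inhibitor passed. Dimmer Cdkn1a read 849.8 and 844 units in E2a-/- MigR1-Cre cells, against 799 and 839 units in E2a-/- MigR1 cells, with a log2 difference of 0.05 ± 0.06 (SE, interval -0.09 to 0.18). Brighter Cdkn1a read 1345 and 1189 units with MigR1-Cre and 1159.9 and 1155 units with MigR1, with a difference of 0.13 ± 0.14 (SE, interval -0.19 to 0.45). At both, the MigR1-Cre arrays lay slightly above the MigR1 arrays without overlap, and the intervals held 0. The same was true of dimmer Cdkn1b and Cdkn2d. The share of all probe sets without overlap was not computed for this line. Whether members separated more often than other probe sets therefore cannot be told. The other 7 member probe sets differed by 0.01 to 0.15 on the log2 scale, the dimmer Cdkn1b probe set at the upper end. In this contrast limma called 0 of 45037 probe sets, which is 0%, with 836 at an unadjusted p under 0.05 and no member among them.

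**Figure D2:**
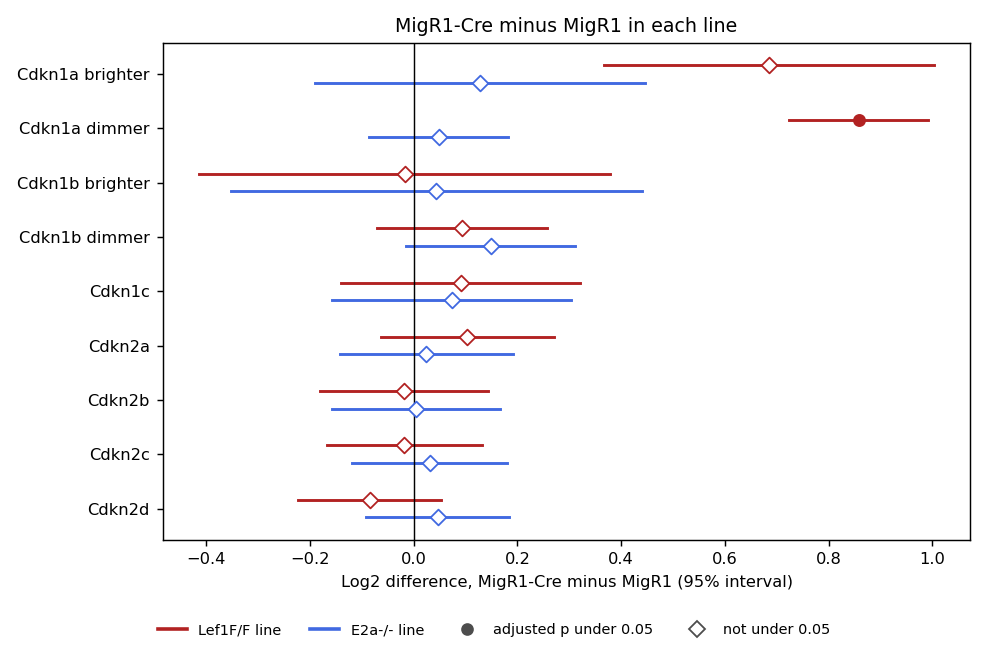
Log2 difference, MigR1-Cre minus MigR1, at each of the 9 CDK inhibitor probe sets, for the Lef1F/F line and the E2a-/- line, with lines for the 95% confidence interval of limma and filled circles where the adjusted p was under 0.05. Cdkn1a stands at 0.86 and 0.68 in the Lef1F/F line against 0.05 and 0.13 in the E2a-/- line, and the other members lie near 0 in both.

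Whether the lines differed in their Cre response was tested directly. At dimmer Cdkn1a the Cre effect was greater in Lef1F/F cells than in E2a-/- cells by 0.81 ± 0.08 on the log2 scale (SE, interval 0.62 to 1.00), with an adjusted p of 0.0476 in limma. At brighter Cdkn1a the difference was 0.56 ± 0.19 (SE, interval 0.11 to 1.01), with an adjusted p of 1. One call in 9 member probe sets compares with 0.0200% of all probe sets, 9 in number. That call was narrow, because leaving out any 1 of the 8 arrays ended it, with adjusted p between 0.0999 and 0.488, although the difference stayed between 0.77 and 0.84. For the remaining members the differences ran between -0.13 for Cdkn2d and 0.08 for Cdkn2a, with adjusted p of 1.

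The next question was how the lines compared. In MigR1 cells, which received no Cre, Cdkn2d, Cdkn2c and Cdkn1b were higher and Cdkn1a was lower in Lef1F/F cells. Cdkn2d read 809 and 777 units in Lef1F/F MigR1 cells, against 412 and 397 units in E2a-/- MigR1 cells. This was a clean separation, with a log2 difference of 0.97 ± 0.06 (SE, 1.96-fold, adjusted p = 2.88e-05, limma). Cdkn2c read 2182 and 2081 units in Lef1F/F cells and 1635 and 1599.8 units in E2a-/- cells, a log2 difference of 0.40 ± 0.06 (SE, adjusted p = 0.00594), and lost its call without the second E2a-/- MigR1 array (adjusted p = 0.0594). Brighter Cdkn1b read 328 and 419 units in Lef1F/F cells and 220.3 and 192 units in E2a-/- cells. The Lef1F/F arrays were wide apart but both above the E2a-/- arrays, and the log2 difference was 0.85 ± 0.17 (SE, adjusted p = 0.0166). That call was lost without either E2a-/- MigR1 array (adjusted p = 0.0738 and 0.142) or without the second Lef1F/F MigR1 array (0.0887). The dimmer Cdkn1b probe set gave 66 and 70.5 units in Lef1F/F cells and 63.9 and 61.5 units in E2a-/- cells, a log2 difference of 0.12 ± 0.07 (SE, adjusted p = 0.394), at levels below the median of every array.

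Cdkn1a ran the other way. Dimmer Cdkn1a read 410.3 and 427 units in Lef1F/F MigR1 cells, against 799 and 839 units in E2a-/- MigR1 cells, a log2 difference of -0.97 ± 0.06 (SE, 1.96-fold lower, adjusted p = 2.56e-05, limma). Brighter Cdkn1a read 570.2 and 749 units in Lef1F/F cells and 1159.9 and 1155 units in E2a-/- cells, a log2 difference of -0.82 ± 0.14 (SE, adjusted p = 0.00666). Neither probe set had overlapping arrays. The call at the brighter one was lost without either E2a-/- MigR1 array (adjusted p = 0.0651 and 0.0615). Cdkn1c read 84.6 and 101 units in Lef1F/F cells and 124 and 109.5 units in E2a-/- cells, a log2 difference of -0.33 ± 0.10 (SE, adjusted p = 0.0785). It passed, at -0.46, without the second Lef1F/F MigR1 array (adjusted p = 0.0331). Cdkn2a and Cdkn2b differed by -0.10 and 0.01.

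Among the 9 member probe sets, 5 were called between the lines in MigR1 cells, 3 higher and 2 lower in Lef1F/F cells, from 4 genes. All probe sets had 10.7% called, 6.06% higher and 4.67% lower. Arrays did not overlap at 8 of the 9 member probe sets, where 50.2% of all probe sets did not overlap. Without the second E2a-/- MigR1 array, 2 of the 9 were called, dimmer Cdkn1a and Cdkn2d, and without the first, 3.

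With MigR1-Cre, Cdkn2d, Cdkn2c and brighter Cdkn1b were again called higher in Lef1F/F cells, and Cdkn1a was not called. Cdkn2d read 732 and 765 units in Lef1F/F MigR1-Cre cells, against 423 and 413 units in E2a-/- MigR1-Cre cells, a log2 difference of 0.84 ± 0.06 (SE, adjusted p = 7.49e-05, limma). Cdkn2c differed by 0.35 ± 0.06 (SE, adjusted p = 0.0104) and brighter Cdkn1b by 0.79 ± 0.17 (SE, adjusted p = 0.0213). For Cdkn1a the lines lay closer to each other than with MigR1. The difference was -0.16 ± 0.06 (SE, interval -0.29 to -0.03, adjusted p = 0.136) at the dimmer probe set, 759 ± 3.2 units in Lef1F/F MigR1-Cre cells and 847 ± 4.2 units in E2a-/- MigR1-Cre cells (SD, n = 2 each). At the brighter probe set it was -0.27 ± 0.14 (SE, adjusted p = 0.302). The test of the change in this line difference between vectors is the same as that of the Cre effects given above. With MigR1-Cre, 3 of the 9 member probe sets were called, where 12.0% of all were. This comparison was chosen after the values had been seen.

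**Figure D3:**
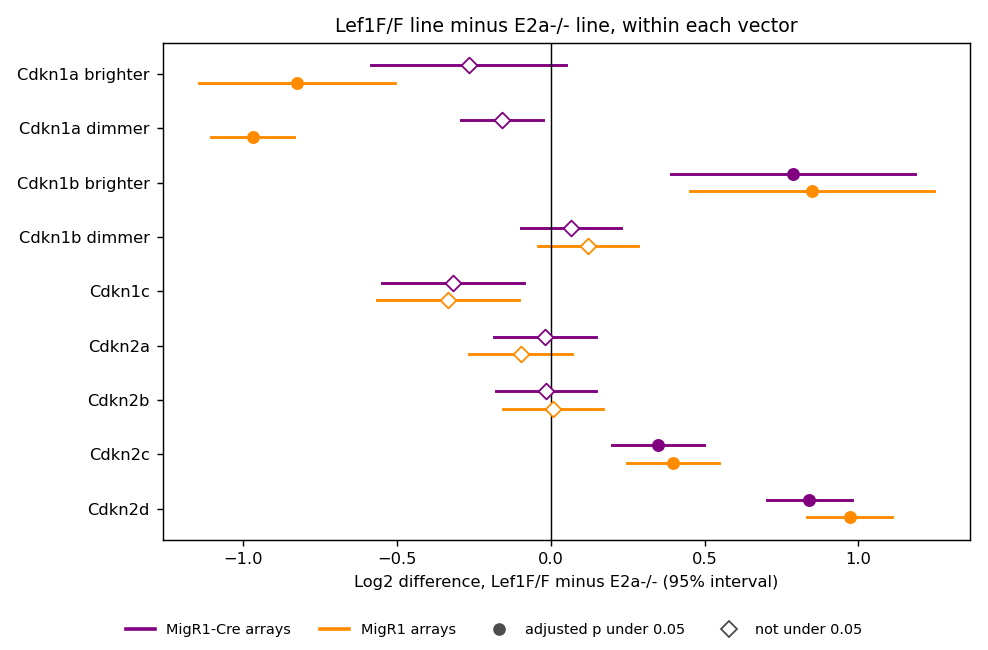
Log2 difference, Lef1F/F minus E2a-/- line, at the 9 CDK inhibitor probe sets, in MigR1-Cre arrays and in MigR1 arrays, with lines for the 95% confidence interval of limma and filled circles where the adjusted p was under 0.05. Cdkn1a lies at -0.16 and -0.27 with MigR1-Cre against -0.97 and -0.82 with MigR1, whereas Cdkn2d (0.84 and 0.97), Cdkn2c and the brighter Cdkn1b probe set lie above 0 with both vectors.

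The lines also differed in cell type markers. In MigR1 cells, where 8.71% of named genes were called higher and 5.88% lower, 4 of 12 T lineage markers were called higher and 2 lower in Lef1F/F cells, with Rag2 at 1.49 and Cd8a at -2.97 on the log2 scale, and the list's summed level was 39176 to 41701 units in Lef1F/F cells and 37533 to 38127 units in E2a-/- cells. Of the other lists, 1 of 6 B lineage and 2 of 5 erythroid markers were called lower, 1 of 4 natural killer markers higher and 0 of 8 myeloid markers either way. The 8 stromal and endothelial markers summed to 1124 to 1165 units in Lef1F/F cells and 4866 to 4955 units in E2a-/- cells, with 1 called higher and 1 lower. Col1a2 made that gap, at 311 and 294 units against 4131 and 4189 units, while Col1a1 and Col3a1 stayed under 70 units in all arrays. Whether these differences have a part in those of the CDK inhibitors was not tested. With Cre in Lef1F/F cells no marker of any cell type list was called.

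Genes around the CDK inhibitors in the cell cycle were then followed in 10 lists, each gene at its brightest probe set. With MigR1-Cre in Lef1F/F cells, the transcriptional regulators of CDK inhibitors alone had calls, 2 lower and 0 higher of 32, where 0.0660% of named genes were called higher and 0.220% lower. Id3, an inhibitor of E proteins, read 281 and 282 units in Lef1F/F MigR1-Cre cells, against 726 and 605 units in Lef1F/F MigR1 cells, and fell by 1.23 on the log2 scale (SE 0.10, adjusted p = 0.0049, limma). Id1, of the same family, read 105 and 104 units with MigR1-Cre and 155 and 157 units with MigR1, and fell by 0.58 (SE 0.06, adjusted p = 0.0122). Both had arrays far apart between the groups. The list's median was 0.00, as was that of all genes.

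No gene of the other 9 lists was called in this comparison. Of 20 p53 axis genes, the smallest p belonged to Gadd45a, a DNA damage response gene, at 232 and 239 units with MigR1-Cre and 329.5 and 324 units with MigR1, a log2 difference of -0.47 ± 0.07 (SE, adjusted p = 0.0888, limma), opposite in sign to Cdkn1a. The next was Aen, a p53-induced nuclease, at -0.22, and the list's highest value was 0.33 for Trp53inp1 and its median 0.03. Trp53 and Bax, also on this list, were not measured under a single symbol. Eda2r, Perp, Plk2, Pmaip1 and Tnfrsf10b read below the median of every array. Of 8 cyclins, Ccnd1 (cyclin D1) read 553 and 605 units with MigR1-Cre and 712 and 759 units with MigR1, a log2 difference of -0.35 ± 0.07 (SE, adjusted p = 0.254), with the next smallest p at Ccne1 (-0.24) and a median of -0.13. The 13 proliferation markers had a median of 0.03 and ran from -0.02 for Mcm2 to 0.18 for Bub1b. These markers are genes of DNA replication and mitosis. Of 13 Rb and E2f genes, the smallest p were those of E2f7 at -0.13 and Rbl1 at -0.11. Those of 4 CDKs were Cdk2 at -0.09 and Cdk1 at 0.06, and those of 14 genes that act in the turnover of p21 and p27 were Cdc20 at -0.17 and Usp11 at 0.12. Cdc20 activates a ubiquitin ligase of mitosis and Usp11 encodes a deubiquitinase. Of 12 other CDK regulators these were Wee1 at 0.12 and Ccnh at -0.08. The chromosome 4 neighbours of Cdkn2a had Mllt3 at 0.19 and Klhl9 at 0.06 of 6 genes, and the imprinted domain of Cdkn1c had Slc22a18 at 0.12 and Tssc4 at -0.16 of 9. With MigR1-Cre in E2a-/- cells, and in the test between the lines, no gene of any of the 10 lists was called.

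**Figure D4:**
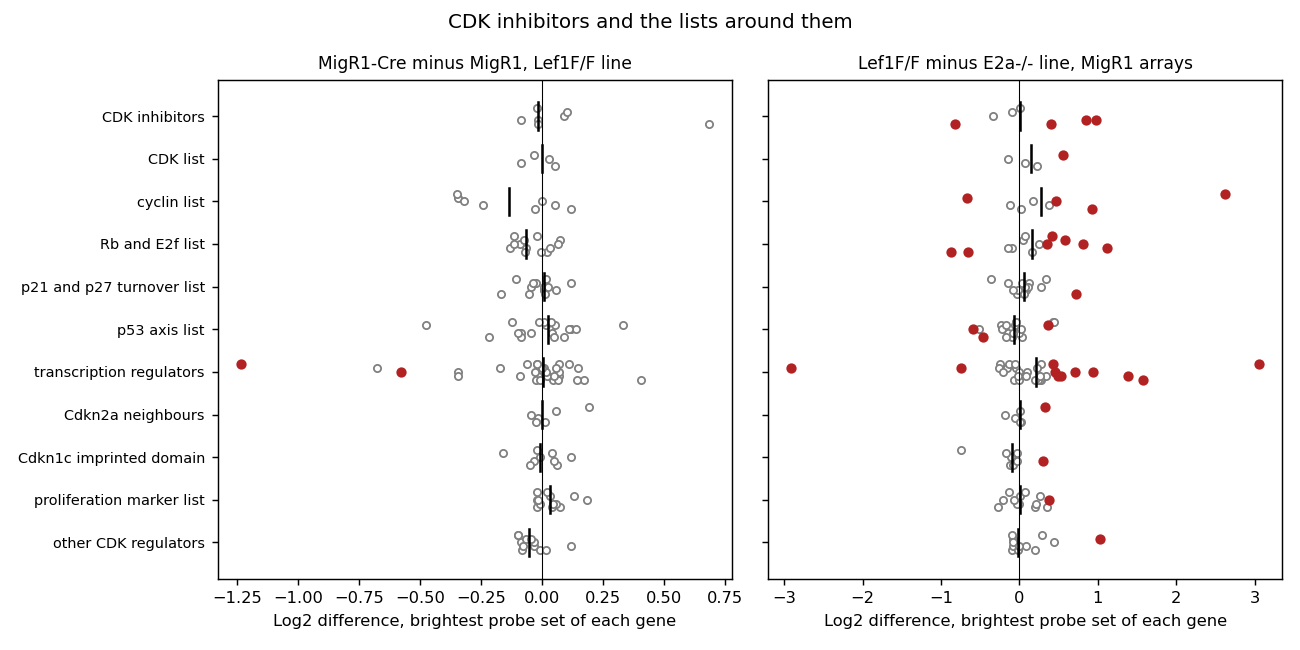
Log2 difference of every measured gene in the 10 cell cycle lists and of the 7 CDK inhibitors, each at its brightest probe set, for MigR1-Cre minus MigR1 in Lef1F/F cells and for Lef1F/F minus E2a-/- cells with MigR1, on separate scales, with calls by limma filled and a vertical bar at each median. With Cre only Id3 (-1.23) and Id1 (-0.58) are called. Mycn (-0.68), Gadd45a (-0.47) and Ets2 (0.41) also stand away from 0 without a call. Mycn was at -0.89 with MigR1-Cre in E2a-/- cells, which are not drawn, also without a call. Between lines, calls run from -2.91 for Tcf4 to 3.06 for Id3.

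Between lines in MigR1 cells, where 8.71% of named genes were called higher and 5.88% lower, calls appeared in all 10 lists. Partners of the CDK inhibitors were among them. Ccnd2 (cyclin D2) read 374 and 523 units in Lef1F/F MigR1 cells, against 72.6 and 70.8 units in E2a-/- MigR1 cells, a log2 difference of 2.62 ± 0.24 (SE, adjusted p = 0.000258, limma). Ccnd3 differed by 0.93 (adjusted p = 0.0173), and Ccnd1 was lower, at 712 and 759 units in Lef1F/F cells and 1215 and 1133 units in E2a-/- cells (log2 difference -0.67, adjusted p = 0.000601). The cyclin list had 3 genes higher and 1 lower of 8. Cdk6, an INK4 target kinase, was the 1 call among 4 CDKs, at 5893 and 5482 units in Lef1F/F cells and 3849 and 3914 units in E2a-/- cells, a log2 difference of 0.55 ± 0.08 (SE, adjusted p = 0.00241).

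Of 13 Rb and E2f genes, 5 were higher and 2 lower, led by the repressor E2f7 at 1.12, E2f6 at -0.87 and Tfdp2, an E2F partner, at 0.81. Of 32 regulators, 9 were higher and 2 lower, led by Id3 at 3.06, the E protein gene Tcf4 at -2.91 and the TGF-beta receptor gene Tgfbr2 at 1.58. The p53 axis had 1 higher and 2 lower of 20, Gadd45a at 0.37, Fas at -0.59 and Aen at -0.46. Against 8.71% of named genes called higher and 5.88% lower, each remaining list, of 6 to 14 measured genes, had 1 gene higher and 0 lower. These were Cdc20 at 0.72 for turnover, Cdkn3, a phosphatase that acts on CDKs, at 1.02, Mllt3 at 0.32 near Cdkn2a, Cd81 at 0.30 in the Cdkn1c domain, and Top2a at 0.37 for proliferation. Mtap, which lies beside Cdkn2a, read 1108 and 1178 units in Lef1F/F MigR1 cells and 1095 and 1186 units in E2a-/- MigR1 cells.

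The genes whose pattern over the 8 arrays was most like a member were found by the root mean square of log2 differences after each probe set was centred on its own mean. This was done for the 3 genes whose brightest probe set had group means at least 0.8 apart, and all values come from the same 8 arrays. Closest to Cdkn1a, among 34943 probe sets, were Fbln2 (0.126), Tsc22d1 (0.135) and Ypel2 (0.143), with a median of 0.393 over all. Fbln2, which encodes an extracellular matrix protein, read 273 and 269.8 units in Lef1F/F MigR1-Cre cells, 152 and 167 units in Lef1F/F MigR1 cells, 316 and 281 units in E2a-/- MigR1-Cre cells, and 320.4 and 320.3 units in E2a-/- MigR1 cells. Like Cdkn1a, it was low in Lef1F/F MigR1 cells alone. Closest to Cdkn1b were Slk (0.0533), Mtmr9 (0.0671) and Fam160b2 (0.0678), against a median of 0.447. Closest to Cdkn2d were Appl1 (0.0509), Hivep1 (0.0553) and Ubqln2 (0.0571), against a median of 0.462. Slk, a kinase gene, read 738 and 961 units in Lef1F/F MigR1-Cre cells and 772 and 1023 units in Lef1F/F MigR1 cells, so the second Lef1F/F array was high with either vector, as for Cdkn1b.

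**Figure D5:**
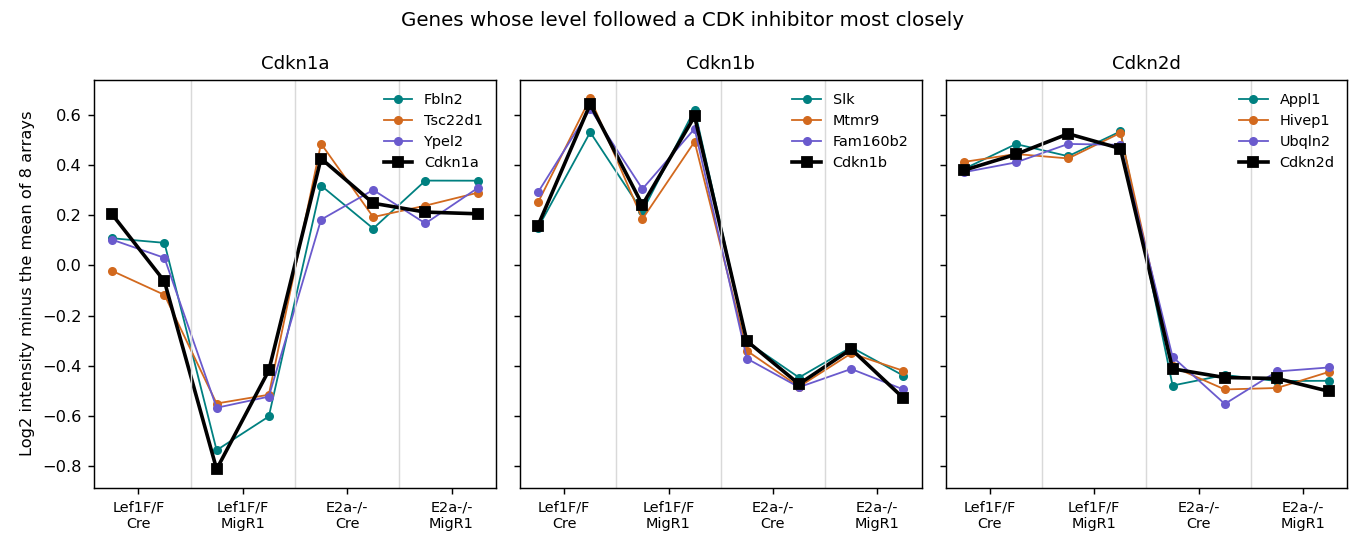
Log2 intensity, centred on each probe set's own mean, of Cdkn1a, Cdkn1b and Cdkn2d and of the 3 genes most like each, over the 8 arrays in the order Lef1F/F MigR1-Cre, Lef1F/F MigR1, E2a-/- MigR1-Cre and E2a-/- MigR1. The Cdkn1a set dips in the Lef1F/F MigR1 arrays, and the Cdkn1b and Cdkn2d sets separate the lines.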

How the data were processed

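Total RNA of GFP+ sorted cells was hybridised to 8 arrays. RMA, run by the authors in RMAExpress (version not given in the sources used here), normalised the scans, and the deposited values are intensity on a linear scale, between 35.3 and 25588 units, without pooling. RMA makes array distributions alike and compresses differences between dim probe sets. The design had assumed log2 values, so log2 of the deposited intensity was taken first, with no offset. Sources name different versions of the 430 array, and the probe sets are those of the 430 2.0 design. All value columns of the table were used.

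Genes were named from the platform annotation, where 34945 of 45037 probe sets had 1 symbol, 932 several and 9160 none. Group means were fitted to all 8 arrays with limma 3.58.1 in R 4.3.3 (4 residual and 3.99 prior degrees of freedom), with two-sided p-values, Benjamini-Hochberg adjustment over all 45037 probe sets and a threshold of 0.05. The number of arrays limits precision. The fit was tested on simulated data that held no line differences and independent noise in each array. Such data do not test the fit where arrays share noise. Levels are means ± SD of linear intensities, and differences are log2 with the moderated standard error.

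The text names all members, Lef1, up to 3 called genes of a list with the greatest difference or else up to 2 with the smallest p, and the 3 genes most like a member. Mcm2, Trp53inp1, Mtap, Mycn, Ets2 and the cell type markers given with values were named after these were seen. The members and lists were chosen with earlier results of these data known. Of 184 list entries 174 were measured under a single symbol, and the rest were not analysed here. Alternatives were other moderation, array weights, repeated quantile normalization, a filter at the 40th percentile, only the arrays compared, a test against a fold of 1.5, an adjusted p of 0.01, a replicate block, means of a gene's probe sets, the line difference averaged over vectors or in MigR1-Cre arrays, and leaving out each array. A planned comparison of protein sequences was not made.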

Additional observations from a re-analysis of the deposited data

Results flagged for a closer look

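The Cre effect differed between the lines, by a test of the difference itself (Lef1F/F minus E2a-/-, limma), at 1 of 9 CDK inhibitor probe sets and at the targeted gene. Over all probe sets 9 were called in this test, or 0.0200%. For Cdkn1a (1421679_a_at) the difference was 0.81 on the log2 scale (adjusted p = 0.0476), with MigR1-Cre arrays above MigR1 arrays in both lines and by far more in Lef1F/F cells. That call was narrow, as given above. The brighter Cdkn1a probe set (0.56) and the mean of both (0.68) were not called. For Lef1 the difference was -2.40 at 1421299_a_at (adjusted p = 0.0149) and -1.82 at 1454734_at (adjusted p = 0.0184). With 2 arrays a group, no group was large enough to look for single outlying arrays.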

How the results depend on the processing

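With MigR1-Cre in Lef1F/F cells, dimmer Cdkn1a kept 0.86 but was not called with only the arrays compared (adjusted p = 0.229) or against a fold of 1.5 (adjusted p = 1), which left 0 member probe sets called. Brighter Cdkn1a was called at 0.68 with a replicate block (adjusted p = 0.0219), which gave 2 calls. At genes' brightest probe sets 0 member genes were called, against 1 when all probe sets of each gene were averaged (Cdkn1a 0.77, adjusted p = 0.0087, limma). The difference of Cre effects at dimmer Cdkn1a stayed 0.81 but was not called under trend and robust moderation (adjusted p = 0.0768), the filter at the 40th percentile (0.0736), a fold of 1.5 (1) or an adjusted p of 0.01, with 0 members called in each. With the probe sets of Cdkn1a averaged, that difference was 0.68 and was not called (adjusted p = 0.171, limma). Between lines, 5 member probe sets were called with MigR1, where 10.7% of all were, and 3 in MigR1-Cre arrays, where 12.0% were. In MigR1-Cre arrays Cdkn1a was at -0.16 and -0.27. Against a fold of 1.5, 2 member probe sets were called with MigR1, and brighter Cdkn1a (-0.82) was lost. Cdkn1b (0.85) lost its call against that fold and at an adjusted p of 0.01, Cdkn2c (0.40) against that fold, and Cdkn1c gained one averaged over both vectors (-0.33, adjusted p = 0.0131) and with the block (-0.33, adjusted p = 0.0118, limma). Cdkn1c read 84.6 to 128.3 units over the arrays, near their medians of 88.9 to 91.0 units.

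Leaving out 1 array moved the Cre effect in Lef1F/F cells between 0.83 and 0.89 at dimmer Cdkn1a (adjusted p 0.014 to 0.029, called each time) and between 0.49 and 0.88 at brighter Cdkn1a (never called), with 1 member called throughout. The difference of Cre effects ran between 0.77 and 0.84 at dimmer and 0.36 and 0.75 at brighter Cdkn1a, with 0 members called each time. The line difference with MigR1 ran between -1.0 and -0.93 at dimmer and -1.02 and -0.63 at brighter Cdkn1a. It ran between 0.67 and 1.02 at brighter Cdkn1b, 0.36 and 0.43 at Cdkn2c and 0.94 and 1.00 at Cdkn2d. Where a group was left with 1 array, it was assumed to vary like the others.

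Signs turned only at values that were never called. Under repeated quantile normalization brighter Cdkn1b was 0.02 with Cre in Lef1F/F cells and Cdkn2b was 0 in E2a-/- cells. Cdkn2b between lines was 0 averaged over vectors and -0.02 in MigR1-Cre arrays. Without 1 array, the Cre effect in Lef1F/F cells ranged from -0.26 to 0.22 at brighter Cdkn1b, -0.04 to 0.22 at Cdkn1c, -0.09 to 0.05 at Cdkn2b and -0.05 to 0.02 at Cdkn2c. In E2a-/- cells it ranged from -0.05 to 0.14 at brighter Cdkn1b, -0.02 to 0.16 at Cdkn1c, -0.03 to 0.08 at Cdkn2a, -0.04 to 0.05 at Cdkn2b and -0.03 to 0.09 at Cdkn2c. The difference of Cre effects ranged from -0.13 to 0.02 and -0.30 to 0.18 at Cdkn1b, -0.11 to 0.15 at Cdkn1c, 0 to 0.16 at Cdkn2a, -0.09 to 0.04 at Cdkn2b and -0.11 to 0.01 at Cdkn2c, and the line difference at Cdkn2b from -0.06 to 0.08. Sign and call (for a count, a value within 1.5 times) were kept in 267 recomputations without 1 array, while 28 turned in sign, 24 lost calls and 1 gained one. Under other settings 293 were kept, 4 turned, 20 lost calls and 5 gained them. The causes were not tested, beyond that fewer arrays or a stricter threshold leave fewer calls.

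The labels do not pair arrays, and a block by array number in the Lef1F/F line (same-numbered arrays correlated at 0.9975 across vectors, arrays within a group at 0.9943 and 0.9945) raised the calls over all probe sets from 75 to 345, 0 to 1, 9 to 86 and 4829 to 9595 in the 4 contrasts. Each array number holds both vectors but not both lines, so in the last contrast the block takes out spread among Lef1F/F arrays without pairing the lines.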
